A study of Mus musculus with 20 samples.

Results

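Loss of Upstream Binding Factor (UBF) was followed in SV40-immortalized mouse embryo fibroblasts (iMEFs) through the mRNAs whose level in Ubf fl/fl cells, relative to the Ubf wt/wt line, was different 48 and 72 h after treatment with 4-hydroxytamoxifen (4-HT) from what it was at 0 and 24 h. The line that can lose UBF was Ubf fl/fl/Er-cre+/+ and its control Ubf wt/wt/Er-cre+/+, so both lines carried the same inducible recombinase and both received 50 nM 4-HT for 4 h. The comparison used 8 of the 20 arrays of the series, 1 for each line at 0, 24, 48 and 72 h post 4-HT treatment (pHT). The 2 iMEF arrays at 96 h were left out of it. The 8 arrays of primary MEFs of the same genotypes at the same times served as a second set, which the calls did not use. The MEFs came from E14.5 embryos, and the iMEFs were made from such cells by transfection of the SV40 T antigens. Each genotype is thus represented in iMEFs by 1 line. Because no line and time has a second array, the errors below measure the scatter of the genotype difference between times and not the spread between lines or cultures. The number of arrays limits the precision.

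UBF is an HMG-box protein that coats the ribosomal RNA genes and is needed for their transcription by RNA polymerase I (RPI). ER-Cre is a recombinase fused to a hormone-binding domain, and it enters the nucleus and cuts out the floxed exons when 4-HT is present. The SV40 T antigens bind and inactivate the p53 and Rb proteins, which otherwise stop the cell cycle when ribosome synthesis fails. Interferon-stimulated genes encode antiviral proteins and are switched on through STAT and IRF factors after cells sense viral or displaced nucleic acid or interferon itself. Mitotic genes are switched on late in the cell cycle, so their mRNA levels follow the share of dividing cells.

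For each mRNA the log2 difference Ubf fl/fl minus Ubf wt/wt was taken at each time, and the contrast is its mean at 48 and 72 h minus its mean at 0 and 24 h. An mRNA was called when its contrast was at least 1 on the log2 scale in size and both late differences lay beyond both early ones. Of 18556 protein-coding genes on the array, 13904 were high enough on at least 2 of the 8 iMEF arrays to be kept. Of these, 50 were called higher (0.36%) and 651 were called lower (4.68%). The called mRNAs were thus chosen by the same differences that are given below for them in iMEFs, so those values are a description and carry no test. The median contrast over all 13904 mRNAs was -0.02. At the edge of the threshold, Klf2 with 1.001 was the last gene inside and Trex1 with 0.998 the first outside on the higher side. Atp13a3 with -1.001 and Ncbp3 with -0.9999 stood on either side of it on the lower side. A further 17 genes with a contrast of -1 or under had overlapping early and late differences and were not called, against 0 on the higher side. Of the called genes, 3 of the 50 higher and 27 of the 651 lower passed the filter on low values on 4 or fewer of the 8 arrays.

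Some iMEF arrays stood apart, and this touches the 651 lower mRNAs far more than the 50 higher ones. The Ubf fl/fl array at 24 h had a median correlation of 0.939 with the other iMEF arrays, whereas the other 9 lay between 0.960 and 0.980. Its interquartile range over all probe sets was 3.54, against 3.06 to 3.38 on the other iMEF arrays, and the widest of these was Ubf wt/wt at 48 h with 3.38. The median level of the 651 lower mRNAs was 8.62, 9.39, 8.44 and 7.99 in Ubf fl/fl iMEFs at 0, 24, 48 and 72 h, against 7.98, 7.96, 8.71 and 8.15 in Ubf wt/wt iMEFs. The 2 highest of these 8 values thus came from the 2 arrays with the widest spread of their line. Without the 24 h arrays, 63 mRNAs were called higher (0.453%) and 133 lower (0.957%), and 39 of the 50 and 127 of the 651 were still called. Without the Ubf fl/fl array at 24 h and the Ubf wt/wt array at 48 h, a choice made after the data were seen, 77 were called higher (0.554%) and 27 lower (0.194%). In that setting each line's own change used the arrays left to it, so the times were not matched between the lines. A call there needed a contrast of at least 1 in size and the difference at 72 h beyond that at 0 h. Of the original sets, 31 of 50 and 20 of 651 were then still called by this looser rule on overlap, and 50 of 50 and 646 of 651 kept their sign. Genes called lower also spanned more genomic sequence, with a median of 44.7 kb, against 8.92 kb for genes called higher and 21.6 kb for all mRNAs. Over 13904 genes the contrast and the logarithm of gene span had a Spearman correlation of -0.351, which is across genes that share the same 8 arrays. The part of array spread and of gene length in the lower group was not tested, so 2 further values stand in brackets after the contrast of a lower gene or the median of a list, the first without both 24 h arrays and the second without the Ubf fl/fl 24 h and Ubf wt/wt 48 h arrays.

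**Figure D1:**
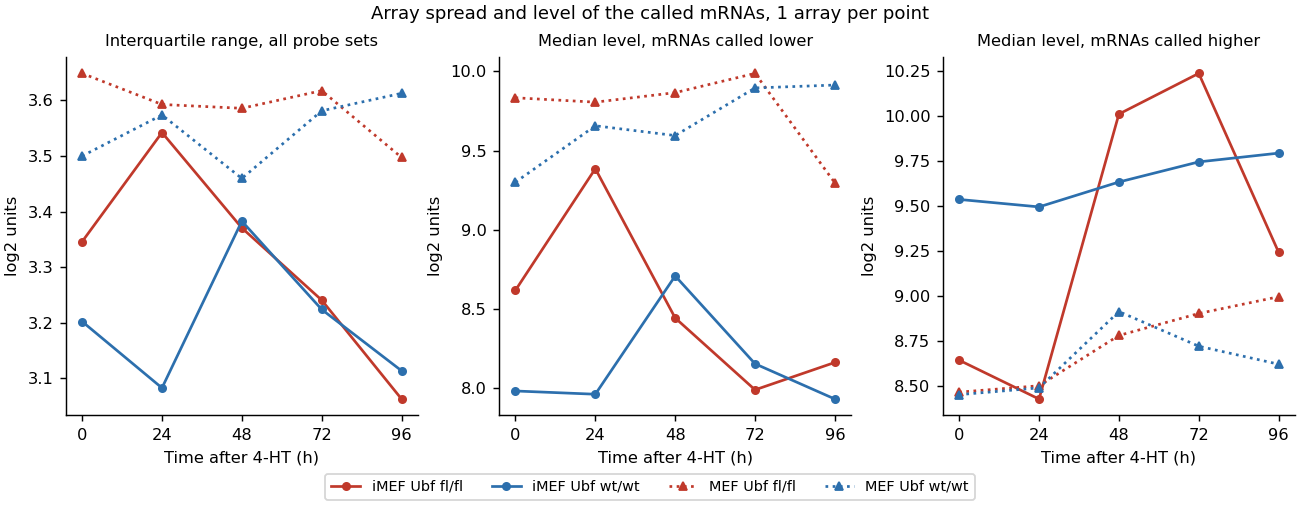
Interquartile range of all probe sets and median levels of the 651 mRNAs called lower and the 50 called higher (log2 units) against time after 4-HT (h), 1 array per point; red is Ubf fl/fl, blue Ubf wt/wt, solid lines iMEFs and dotted lines primary MEFs. The Ubf fl/fl iMEF array at 24 h has the widest spread of the iMEF arrays (3.54) and the highest median of the mRNAs called lower (9.39), while the mRNAs called higher reach 10.01 and 10.24 at 48 and 72 h in Ubf fl/fl iMEFs.

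Markers of the labelled cell type were present. The summed level of 14 fibroblast markers lay between 15.19 and 15.6 on the log2 scale on the Ubf fl/fl arrays and between 15.34 and 15.47 on the Ubf wt/wt arrays, and 13 of the 14 passed the filter. Of the markers of other cell types, 11 of 20 passed for macrophages, 6 of 10 for endothelium, 7 of 10 each for epithelium and neural cells, 8 of 12 for skeletal muscle and 6 of 8 for adipocytes, and levels of different probe sets cannot be set against each other. In bulk RNA, fewer cells of a kind and less RNA per cell cannot be told apart. The targeted gene, Ubtf, had levels of 10.43, 10.62, 10.42 and 10.24 in Ubf fl/fl iMEFs at 0, 24, 48 and 72 h, against 10.41, 10.45, 10.33 and 10.17 in Ubf wt/wt iMEFs. Its contrast was -0.01 ± 0.17 (SE), but the positions of its probes relative to the floxed exons were not used here, so this value does not check the deletion.

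Each line's own change, the mean at 48 and 72 h minus the mean at 0 and 24 h, is given here for the called groups. All 50 mRNAs called higher had a positive own change in Ubf fl/fl iMEFs, with a median of 1.5, and 30 of the 50 also had one in Ubf wt/wt iMEFs, where the median was 0.27. The Ubf fl/fl line carried at least 2 of 3 parts of the contrast in 35 of these genes, the Ubf wt/wt line in 4, and both shared it in 11. Their median difference between the lines was -0.79 and -0.85 at 0 and 24 h, 0.35 and 0.47 at 48 and 72 h, and -0.38 at 96 h. As a group, then, they began below the control, passed it at 48 and 72 h, and lay below it again at 96 h. Among the 651 mRNAs called lower, 636 had a negative own change in Ubf fl/fl iMEFs (median -0.74) and a positive one in Ubf wt/wt iMEFs (median 0.47). The contrast was shared by both lines in 404 of these genes, carried by Ubf fl/fl in 215 and by Ubf wt/wt in 32. Their median difference was 0.57, 1.36, -0.29, -0.20 and 0.25 at 0, 24, 48, 72 and 96 h, and the 24 h value exceeded the 0 h value in 644 genes. The lower group therefore lay above the control at 0 and 24 h, a little below it at 48 and 72 h, and above it again at 96 h.

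**Figure D2:**
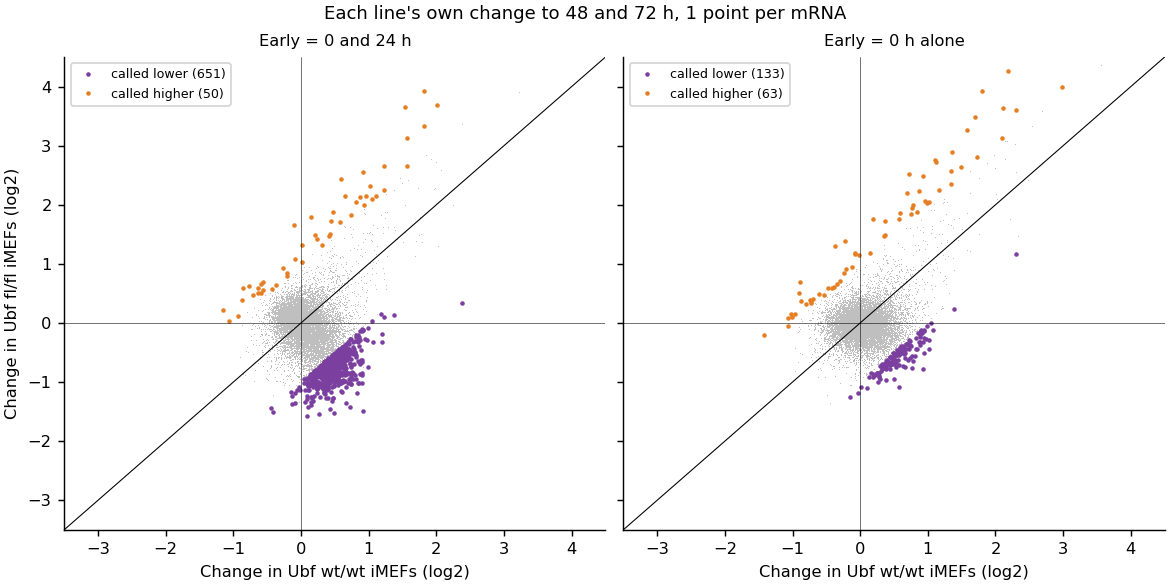
Own change of each mRNA from the early times to 48 and 72 h in Ubf fl/fl iMEFs (vertical axis, log2) and Ubf wt/wt iMEFs (horizontal axis, log2), with 0 and 24 h as early times on the left and 0 h alone on the right; the diagonal marks equal change. On the left, 30 of the 50 higher mRNAs lie in the upper right, where both lines have a positive change. The left panel has 651 lower mRNAs and the right 133, of which 127 are among the 651.

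Interferon-stimulated genes led the mRNAs called higher. Of 65 measured members of this list, 12 were called higher and 0 lower, and 48 had a positive contrast, with a median of 0.47 beside -0.02 for all mRNAs. All 65 had a positive own change in Ubf fl/fl iMEFs (median 1.48), and so did 64 of 65 in Ubf wt/wt iMEFs (median 1.02), so the control line differed in the same direction by a smaller amount. The median was 0.60 with 18 called higher without the 24 h arrays, and 1.12 with 34 called higher without the Ubf fl/fl 24 h and Ubf wt/wt 48 h arrays. In the second setting only Ubf fl/fl iMEFs kept 48 h and only Ubf wt/wt iMEFs kept 24 h. The part of this mismatch of times in the 1.12 was not tested. The summed log2 level of 20 macrophage markers, of which 11 passed the filter, was higher late in Ubf fl/fl iMEFs and overlapped in Ubf wt/wt iMEFs. It was 10.61 to 10.8 at the early and 10.92 to 11.33 at the late times in Ubf fl/fl iMEFs, and 10.93 to 10.97 early and 10.95 to 11.38 late in Ubf wt/wt iMEFs. Of the 11 kept, 7 had a positive own change in Ubf fl/fl iMEFs (median 0.03) but only 3 in Ubf wt/wt iMEFs (median -0.10). Relative to 0 h alone both medians were negative (-0.07 and -0.04). The part of RNA from macrophages in the result was not tested.

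Within the list, Oas2 and Zbp1 had the largest contrasts. Oas2, which makes the second messenger 2-5A on binding double-stranded RNA, had levels of 7.83, 8.37, 11.91 and 11.59 in Ubf fl/fl iMEFs at 0, 24, 48 and 72 h, against 9.88, 10.42, 11.82 and 11.55 in Ubf wt/wt iMEFs. Its contrast was 2.11 ± 0.17 (SE), or 4.33-fold. The lines differed by about the same amount at both early times and hardly at both late times. Zbp1, a sensor of left-handed nucleic acid, had levels of 7.69, 8.36, 12.03 and 11.88 in Ubf fl/fl iMEFs, against 9.53, 10.29, 11.87 and 11.58 in Ubf wt/wt iMEFs, with a contrast of 2.11 ± 0.17. Ubf fl/fl cells lay far below the control at both early times and slightly above it at 48 and 72 h. The related synthetases Oas1a and Oas3 had contrasts of 1.85 ± 0.17 and 1.67 ± 0.22. Irf7, the transcription factor that amplifies the interferon response, stood at 1.42 ± 0.19, and Xaf1, a pro-apoptotic protein gene, at 1.31 ± 0.24. Parp10, an ADP-ribosyltransferase, with 1.41 ± 0.18 and Ifi27l2a, an interferon-induced mitochondrial protein gene, with 1.52 ± 0.25 were also called higher but are not in the list. Without the 24 h arrays Oas2 lay at 2.12, Zbp1 at 2.07, Oas1a at 1.79, Oas3 at 1.52, Irf7 at 1.54 and Xaf1 at 1.60. The Oas1 genes form a family of close copies whose probes can share signal, so the value of Oas1a is uncertain in its gene. At 96 h the genotype difference of Oas2 was -0.66, of Zbp1 -0.37, of Oas1a -1.40 and of Oas3 -1.28.

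**Figure D3:**
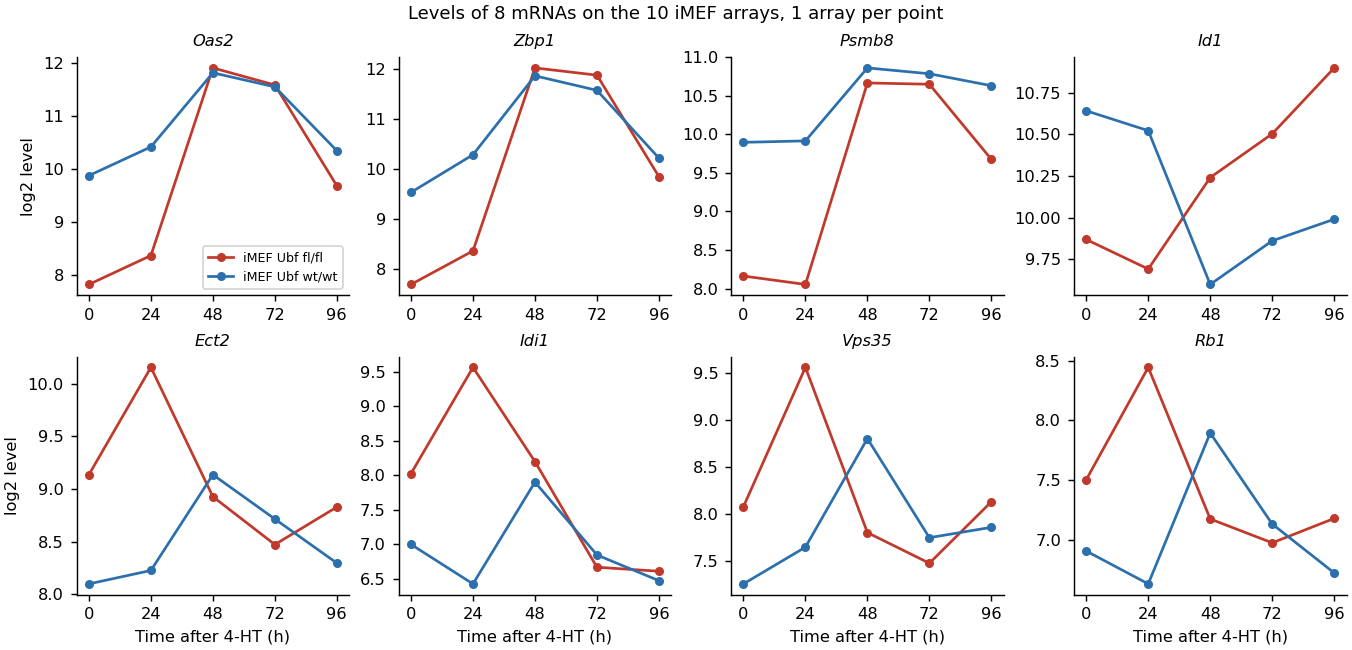
Levels (log2) of 8 mRNAs on the 10 iMEF arrays against time after 4-HT (h), 1 array per point, with Ubf fl/fl in red and Ubf wt/wt in blue. Oas2, Zbp1 and Psmb8 are higher at 48 and 72 h than before in both lines and begin lower in Ubf fl/fl cells, the lines cross for Id1, and Ect2, Idi1, Vps35 and Rb1 are highest in Ubf fl/fl cells at 24 h.

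Promoters of the interferon group are shown because most of these genes shared a direction in both lines. The interferon-stimulated response element was searched as GAAA followed after any 2 bases by a second GAAA, on both strands, from 250 bases before to 50 after each start site in RefSeq promoter sequences of GRCm38.p6. Of the 11188 mRNAs with a promoter entry, 3.45% held a match, as did 8 of 38 mRNAs called higher (21.1%), 16 of 543 called lower (2.95%), 28 of 52 interferon-stimulated genes (53.8%) and 4 of the 8 called ones with an entry. Overlapping matches were counted as 1 gene, and a match is only a run of letters. Oas2 and Zbp1 had no entry. Below are 100 bases upstream of 2 of the called genes, 5′ to 3′ along the gene, with every match in capitals. Oas1a is from chr5:120907526-120907625 on the minus strand and Oas3 from chr5:120777680-120777779 on the minus strand.
Oas1a: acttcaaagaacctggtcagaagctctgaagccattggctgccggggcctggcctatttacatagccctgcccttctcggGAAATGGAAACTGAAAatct
Oas3: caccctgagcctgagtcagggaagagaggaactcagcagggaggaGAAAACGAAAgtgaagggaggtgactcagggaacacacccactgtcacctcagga
The run in Oas1a holds 2 overlapping matches within the last bases before the start site, and that in Oas3 holds 1 match farther upstream.

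Genes of MHC class I antigen presentation were also among the mRNAs called higher. Of 16 measured, 5 were called higher and 0 lower, 14 had a positive contrast, and the median was 0.49 (0.46 and 0.36). Psmb8, a catalytic subunit of the immunoproteasome that cuts peptides for presentation, had levels of 8.16, 8.05, 10.67 and 10.65 in Ubf fl/fl iMEFs, against 9.90, 9.91, 10.86 and 10.79 in Ubf wt/wt iMEFs. Its contrast was 1.63 ± 0.17, and Ubf fl/fl cells stayed below the control at all 4 times. The other immunoproteasome subunits Psmb9 and Psmb10 had contrasts of 1.19 ± 0.23 and 1.07 ± 0.17, and Tap1, which carries peptides into the endoplasmic reticulum, had 1.26 ± 0.19. H2-T24, a nonclassical class I gene, was the exception to the low start. It had levels of 6.69, 6.79, 9.05 and 8.72 in Ubf fl/fl iMEFs, against 6.74, 6.83, 7.47 and 7.39 in Ubf wt/wt iMEFs, with a contrast of 1.51 ± 0.18. The lines overlapped at the early times and Ubf fl/fl cells lay above the control at both late ones, though probes of this gene can share signal with its close copies. Together, interferon-stimulated and MHC class I genes made up 17 of the 50 mRNAs called higher, and the 2 lists share 0 genes among those measured.

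With all 8 arrays, histone genes were the list with the highest median, 0.55 over 34 measured members, of which 30 had a positive contrast, 3 were called higher and 0 lower. The median was 0.47 without the 24 h arrays and 0.31 without the Ubf fl/fl 24 h and Ubf wt/wt 48 h arrays, below the 0.60 and 1.12 of interferon-stimulated genes in these settings. Relative to both early times, 29 of 34 members had a positive own change in Ubf fl/fl iMEFs (median 0.18) and 32 of 34 had a negative one in Ubf wt/wt iMEFs (median -0.32). Relative to 0 h alone, the median own change was 0.01 in Ubf fl/fl iMEFs and -0.49 in Ubf wt/wt iMEFs, so the positive values in Ubf fl/fl iMEFs rested on the 24 h array. H3c15 had levels of 9.31, 8.46, 9.23 and 8.97 in Ubf fl/fl iMEFs, against 9.29, 8.76, 8.23 and 7.51 in Ubf wt/wt iMEFs, with a contrast of 1.37 ± 0.23. The control was lower at both late times than at both early ones, and Ubf fl/fl cells were not. H4c3 and H4f16 had contrasts of 1.24 ± 0.20 and 1.19 ± 0.19, which were 0.61 and 0.86 without the Ubf fl/fl 24 h and Ubf wt/wt 48 h arrays. Histone genes are near-identical copies, so these probe sets may report more than 1 gene. At 96 h the median histone contrast relative to 0 and 24 h was 0.66.

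Immediate early genes and genes that report ERK signalling lay above the median as well. Of 39 AP-1 and immediate early genes, 31 had a positive contrast, with a median of 0.38 (0.43 and 0.40), and 2 were called higher. These were Csrnp1, a nuclear protein induced by axin, with 1.01 ± 0.17 and Klf2, a Krüppel-like factor, with 1.0 ± 0.19. Without the 24 h arrays they lay at 0.96 and 0.87. Without the Ubf fl/fl 24 h and Ubf wt/wt 48 h arrays they lay at 0.98 and 0.93, and neither was called in either setting. Of 21 ERK feedback genes, 16 had a positive contrast, with a median of 0.34 (0.26 and 0.19), and 0 were called. The median own changes of the AP-1 and ERK lists were 0.36 and 0.32 in Ubf fl/fl iMEFs, against 0.02 and -0.03 in Ubf wt/wt iMEFs. Ier3, an early response gene, and the phosphatases Dusp6 and Dusp5 had contrasts of 0.98 ± 0.17, 0.95 ± 0.17 and 0.88 ± 0.17. Id1, an inhibitor of differentiation induced by BMP signalling, had levels of 9.87, 9.69, 10.24 and 10.50 in Ubf fl/fl iMEFs, against 10.64, 10.52, 9.60 and 9.86 in Ubf wt/wt iMEFs. The lines differed in opposite directions from early to late times and crossed between 24 and 48 h, with a contrast of 1.44 ± 0.17 and a difference of 0.91 at 96 h. Clec2d, a ligand of a natural killer cell receptor, had a contrast of 1.77 ± 0.21 with levels of 10.38, 9.80, 11.73 and 11.78 in Ubf fl/fl iMEFs, against 11.19, 10.95, 11.12 and 10.80 in Ubf wt/wt iMEFs. Plac8 had 1.57 ± 0.42 and the zinc finger gene Zfp296 1.64 ± 0.19. Rrp9, a protein of the U3 snoRNP that processes pre-rRNA, had 1.39 ± 0.20 with levels of 9.47, 9.63, 10.03 and 10.31 in Ubf fl/fl iMEFs, against 10.71, 10.48, 9.66 and 9.99 in Ubf wt/wt iMEFs.

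Of the 50 mRNAs called higher, 27 belonged to at least 1 of the 50 pathway lists (54.0%), and of the 651 called lower 135 did (20.7%), beside 2056 of all 13904 (14.8%). Among the mRNAs called lower, Uprt, named for a uracil salvage enzyme, had the lowest contrast at -2.41 ± 0.43 (-1.71 and -1.27). Its levels were 7.61, 9.03, 7.04 and 6.62 in Ubf fl/fl iMEFs, against 6.64, 6.68, 8.0 and 7.16 in Ubf wt/wt iMEFs. Vps35, the core of the retromer that returns cargo from endosomes, had levels of 8.08, 9.56, 7.80 and 7.47 in Ubf fl/fl iMEFs, against 7.25, 7.64, 8.80 and 7.74 in Ubf wt/wt iMEFs. Its contrast was -2.01 ± 0.40 (-1.46 and -0.74). Both genes were highest at 24 h in Ubf fl/fl cells and at 48 h in Ubf wt/wt cells. Copb1, a coat protein of vesicles between Golgi and endoplasmic reticulum, had a contrast of -1.91 ± 0.32 (-1.45 and -0.97), and Trim13, a ubiquitin ligase of the endoplasmic reticulum, -2.01 ± 0.34 (-1.66 and -0.82). Idh1, the cytosolic isocitrate dehydrogenase, had -1.89 ± 0.38 (-1.26 and -0.86), and Cul2, a ubiquitin ligase scaffold, -1.87 ± 0.33 (-1.37 and -1.15). Pbrm1, a bromodomain subunit of a chromatin remodeller, had -1.81 ± 0.37 (-1.23 and -0.72), Pls3, an actin bundler, -1.79 ± 0.45 (-1.04 and -0.60), and Hif1a, the oxygen-regulated transcription factor, -1.77 ± 0.37 (-1.31 and -0.59). Qser1 had -2.16 ± 0.75 (-0.83 and -0.75). Sp140 had -2.03 ± 0.52 (-1.13 and -0.92), but its own change in Ubf fl/fl iMEFs was positive at 0.34, and the contrast lay in the control, which had an own change of 2.37. Trim13 and Sp140 each passed the filter on low values on only 4 of the 8 arrays.

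The 20 genes still called lower without the Ubf fl/fl 24 h and Ubf wt/wt 48 h arrays included Uprt, Cul2 (-1.15), Atg4c (-1.26), a protease of autophagosome formation, and Grb14 (-1.05), an adaptor that restrains the insulin receptor. Lman1 (-1.04), Ssr1 (-1.06) and Copg2 (-1.02), which act in protein traffic at the endoplasmic reticulum, were also among them and were picked after their values were seen. For Grb14 the difference between the lines was small at both early times, at 0.12 and 0.21, and it was -0.88, -1.13 and -1.01 at 48, 72 and 96 h.

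With all 8 arrays, genes of mitosis and cytokinesis had the lowest median of the lists. Of 92 measured, 84 had a negative contrast, 24 were called lower and 0 higher, and the median was -0.65. It was -0.33 without the 24 h arrays, with 1 gene called lower, and -0.27 without the Ubf fl/fl 24 h and Ubf wt/wt 48 h arrays, with 0 called. It was no longer the lowest, as DNA replication genes lay at -0.35 in the first setting and fatty acid genes also at -0.27 in the second. The own change was negative in 78 of 92 in Ubf fl/fl iMEFs (median -0.41) and positive in 76 of 92 in Ubf wt/wt iMEFs (median 0.23). Relative to 0 h alone these medians were -0.17 in Ubf fl/fl iMEFs and 0.19 in Ubf wt/wt iMEFs. The median difference was 0.45, 0.86, 0.10, 0.11 and 0.07 at 0, 24, 48, 72 and 96 h, so Ubf fl/fl iMEFs began with more of these mRNAs and reached the level of the control. Ect2, the exchange factor that starts the contractile ring, had levels of 9.14, 10.16, 8.93 and 8.47 in Ubf fl/fl iMEFs, against 8.10, 8.23, 9.14 and 8.72 in Ubf wt/wt iMEFs. Its contrast was -1.71 ± 0.30 (-1.26 and -0.99), and it alone of the 92 was still called without the 24 h arrays. Nuf2, of the kinetochore, had levels of 7.64, 9.06, 7.44 and 7.15 in Ubf fl/fl iMEFs, against 6.55, 6.87, 7.38 and 7.04 in Ubf wt/wt iMEFs, with a contrast of -1.55 ± 0.35 (-1.0 and -0.67). Bub1, a kinase of the spindle checkpoint, had -1.50 ± 0.76 (-0.16 and -0.06), and Smc4, a condensin subunit, -1.55 ± 0.75 (-0.24 and -0.10). Top2a, which untangles DNA, had -1.56 ± 0.43 (-0.84 and -0.70) by its brighter probe set and 1.77 by a dimmer one. Mastl, the kinase that holds back a mitotic phosphatase, had -1.49 ± 0.53 (-0.57 and -0.55).

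The cell cycle homology region, a promoter element of genes expressed late in the cycle, was searched as TTTGAA on both strands in the same windows. It was present in 14.0% of all mRNAs with an entry, in 50 of 76 mitotic genes (65.8%), in 12 of the 20 mitotic genes called lower with an entry, in 94 of 543 mRNAs called lower (17.3%) and in 9 of 38 called higher (23.7%). It is shown for Ect2 from chr3:27153940-27154039 and Top2a from chr11:99024190-99024289, both on the minus strand, with matches on either strand in capitals, as the 2 mitotic genes with the largest contrasts.
Ect2: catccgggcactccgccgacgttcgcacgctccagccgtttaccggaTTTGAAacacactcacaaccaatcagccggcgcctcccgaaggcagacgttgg
Top2a: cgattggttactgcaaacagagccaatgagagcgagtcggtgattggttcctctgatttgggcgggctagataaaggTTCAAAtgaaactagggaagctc
In Top2a the capitals read on the opposite strand.

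Genes of DNA replication and nucleotide synthesis lay below the median with them. Of 65, 57 had a negative contrast and 8 were called lower, with a median of -0.49 (-0.35 and -0.24). Orc3, of the origin recognition complex, had levels of 8.64, 9.25, 8.19 and 7.80 in Ubf fl/fl iMEFs, against 7.52, 7.67, 8.81 and 7.79 in Ubf wt/wt iMEFs, with a contrast of -1.66 ± 0.27 (-1.43 and -0.85). Prim1, the catalytic primase subunit, had -1.28 ± 0.20 (-1.09 and -0.63), Mcm4, of the replicative helicase, -1.24 ± 0.26 (-0.88 and -0.70), and Rrm1, of ribonucleotide reductase, -1.24 ± 0.25 (-0.92 and -0.74). Of 25 genes of E2F factors, G1 cyclins and their kinases, 3 were called lower, with a median of -0.34 (-0.16 and -0.12). These were the pocket protein genes, whose products repress E2F factors, and Rb1 alone was still called without the 24 h arrays and none without the Ubf fl/fl 24 h and Ubf wt/wt 48 h arrays. Rb1 had levels of 7.50, 8.44, 7.17 and 6.98 in Ubf fl/fl iMEFs, against 6.91, 6.63, 7.89 and 7.13 in Ubf wt/wt iMEFs, with a contrast of -1.64 ± 0.40 (-1.04 and -0.79), while Rbl1 had -1.19 ± 0.20 (-0.99 and -0.59) and Rbl2 -1.16 ± 0.31 (-0.70 and -0.50). Repair genes of homologous recombination and the Fanconi pathway had a median of -0.38 over 36 (-0.24 and -0.14). Atm with -1.12 ± 0.27 (-0.81 and -0.42) and Rad50 with -1.07 ± 0.54 (-0.16 and -0.04) were called lower, a share of 5.56% near the 4.68% of all mRNAs. Atm rested on the control, with an own change of 0.11 in Ubf fl/fl iMEFs and 1.23 in Ubf wt/wt iMEFs.

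Lists of nuclear transport, protein folding and lipid synthesis also had medians below -0.3. Of 41 nuclear pore and import genes, 7 were called lower, with a median of -0.50 (-0.35 and -0.20). The lowest was Cse1l, an exporter of importin alpha, with -1.71 ± 0.36 (-1.24 and -0.53), and the importin subunits Kpna3 and Kpnb1 had -1.50 ± 0.35 (-0.95 and -0.44) and -1.33 ± 0.37 (-0.74 and -0.43). Of 34 cytosolic heat shock genes, 7 were called lower, with a median of -0.46 (-0.27 and -0.16), among them the heat shock factor gene Hsf2 with -1.60 ± 0.34 (-1.09 and -0.85) and the chaperonin subunit gene Cct4 with -1.22 ± 0.18 (-1.12 and -0.93). Of 64 spliceosome genes, 7 were called lower, with a median of -0.37 (-0.13 and -0.04), including Sf3b1, which recognises the branch point, with -1.45 ± 0.41 (-0.82 and -0.41). Of 32 genes of endoplasmic reticulum chaperones, 5 were called lower, with a median of -0.32 (-0.28 and -0.16), and Hsp90b1, the chaperone GRP94, had -1.54 ± 0.52 (-0.71 and -0.31). Cholesterol synthesis genes had a median of -0.33 over 29 (-0.22 and -0.12), with 4 called lower. Of these, Idi1, which isomerises isopentenyl diphosphate, had levels of 8.02, 9.57, 8.20 and 6.67 in Ubf fl/fl iMEFs, against 7.0, 6.42, 7.90 and 6.84 in Ubf wt/wt iMEFs. Its contrast was -2.02 ± 0.62 (-0.97 and -0.73). Fatty acid genes had a median of -0.36 over 36 (-0.34 and -0.27). Of these, Acaca, the acetyl-CoA carboxylase, with -1.33 ± 0.32 (-0.84 and -0.37) and Hadha, of fatty acid oxidation, with -1.05 ± 0.21 (-0.88 and -0.58) were called lower, again 5.56%. Among 35 proteasome genes 6 were called lower (median -0.26, with -0.12 and -0.03 in the other settings), whereas the immunoproteasome subunits above were called higher. In these 7 lists 0 genes were called without the Ubf fl/fl 24 h and Ubf wt/wt 48 h arrays.

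With all 8 arrays, ribosomal protein genes and genes of RPI transcription lay close to the median of all mRNAs. Of 56 ribosomal protein genes 0 were called, with a median of -0.05 (0.003 and -0.004) and a range from -0.97 (Rpl7) to 0.76. Of 16 genes of the RPI transcription machinery 0 were called, with a median of -0.05 (0.03 and 0.15). In the second of these settings 10 of the 16 were positive, beside a median of -0.07 for all mRNAs. Taf1d, a subunit of the promoter selectivity factor SL1, had levels of 12.48, 12.08, 12.51 and 12.61 in Ubf fl/fl iMEFs, against 12.35, 12.11, 11.72 and 11.73 in Ubf wt/wt iMEFs, with a contrast of 0.79 ± 0.17. As for H3c15, the control alone was lower at both late times than at both early ones. Rrn3, which joins RPI to its promoter, and Taf1b, of SL1, had contrasts of -0.79 ± 0.18 (-0.67 and -0.46) and -0.80 ± 0.30 (-0.34 and -0.67). Of 114 ribosome biogenesis factors, Rrp9 alone was called higher and 13 were called lower, with a median of -0.24. Without the 24 h arrays 2 were called lower and the median was -0.09, and without the Ubf fl/fl 24 h and Ubf wt/wt 48 h arrays 0 were called lower and the median was 0.00. Riok2, a kinase of small subunit maturation, had -1.33 ± 0.23 (-1.05 and -0.58), and the GTPase gene Gnl2 -1.29 ± 0.24 (-1.05 and -0.63). Of 35 p53 targets, 1 was called higher (Tap1) and 1 lower, Ccng1, with -1.04 ± 0.23 (-0.76 and -0.50), and the median was -0.18 (-0.15 and -0.08).

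**Figure D4:**
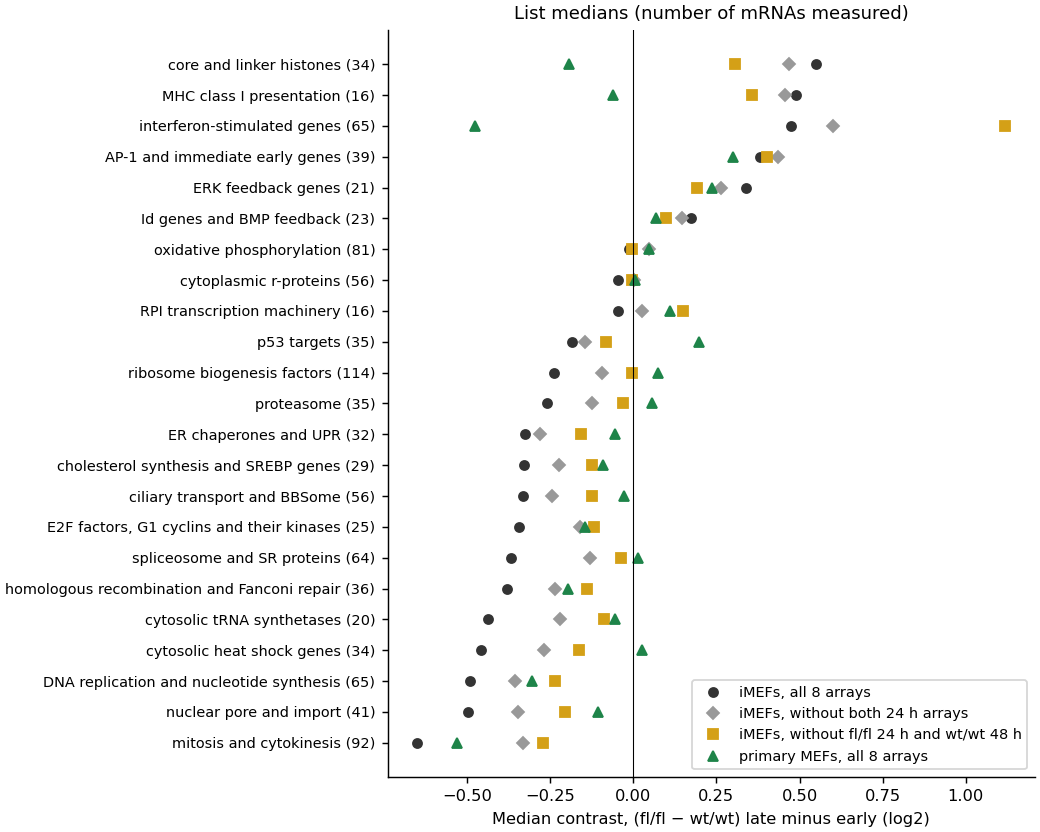
Median contrast (log2) of 23 gene lists, with the number of mRNAs measured in brackets, for all 8 iMEF arrays (black), without both 24 h arrays (grey), without the Ubf fl/fl 24 h and Ubf wt/wt 48 h arrays (yellow) and for primary MEFs (green). With all 8 iMEF arrays, histone, MHC class I and interferon-stimulated genes lie highest and mitosis lowest (-0.65). Interferon-stimulated genes lie at -0.48 in primary MEFs, and the lower lists shrink toward 0 when the arrays are left out.

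The scaling of the arrays sets where 0 lies. When each array was scaled to the same median over mRNAs, the median contrast of all mRNAs became 0.215, and 154 were called higher against 248 lower. After quantile normalization over mRNAs it was 0.06, with 92 higher and 373 lower. The 18 lists with a median of at least 0.3 in size kept their sign under both scalings. The medians of ribosomal proteins and RPI machinery became 0.19 each under the median scaling, so their sign depends on the scaling, and p53 targets went to 0.05.

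Primary MEFs gave the same contrast in arrays that the choice of genes had not used. By limma over 14629 genes, 0 passed an adjusted p of 0.05 (0%), with 421 mRNAs lower (3.03%) and 592 higher (4.26%) at an unadjusted p under 0.05. Of the 651 mRNAs called lower in iMEFs, 542 had a negative contrast in MEFs, beside 6161 of all 13904, and 56 were lower and 1 higher at an unadjusted p under 0.05. Their median level was 9.83, 9.81, 9.87 and 9.99 in Ubf fl/fl MEFs at 0, 24, 48 and 72 h, so it was not lower late in that line. In Ubf wt/wt MEFs it was 9.30, 9.66, 9.59 and 9.89. The Ubf wt/wt array at 0 h, with the lowest of these values, also had the lowest median correlation with the other MEF arrays (0.959). Of the 50 called higher, 23 had a negative and 27 a positive contrast there, and 11 were lower and 9 higher at that p. Over 13904 mRNAs the 2 contrasts had a Pearson correlation of 0.337 and a Spearman correlation of 0.332, which is across genes that are not independent replicates.

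The mitotic genes were the list with the lowest MEF median too, at -0.53, with 88 of 92 negative and 47 lower at an unadjusted p under 0.05. In MEFs both lines had less of these mRNAs at the late times, with a median own change of -1.92 in Ubf fl/fl cells and -1.34 in Ubf wt/wt cells. Nuf2 had levels of 9.39, 9.59, 7.31 and 6.23 in Ubf fl/fl MEFs at 0, 24, 48 and 72 h, against 8.10, 8.96, 7.30 and 7.23 in Ubf wt/wt MEFs. Its MEF contrast was -1.45 ± 0.33, with a limma adjusted p of 0.54. DNA replication genes had a median of -0.30, with 56 of 65 negative and 18 lower at that unadjusted p, and repair genes -0.20, with 31 of 36 negative and 10 lower. By adjusted p, 0 of 92 mitotic genes passed. As lower, 27 passed with array medians made equal, beside 80 of all 13904 mRNAs, and 7 with trend and robust settings of limma, beside 40. The median difference between the lines for the mitotic genes was 0.32, 0.21, -0.01 and -0.60 at 0, 24, 48 and 72 h in MEFs. With 72 h as the only late time, the fit has 1 value there and cannot measure its spread.

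Interferon-stimulated genes had contrasts of the opposite sign in MEFs, with a median of -0.48, 55 of 65 negative, and 32 lower and 2 higher at an unadjusted p under 0.05. Both lines again had more of these mRNAs at the late times, with a median own change of 0.87 in Ubf fl/fl MEFs and 1.45 in Ubf wt/wt MEFs. The median difference was 0.83, 0.35, 0.10 and 0.01 at 0, 24, 48 and 72 h in MEFs, and -0.59, -0.41, 0.02 and 0.06 in iMEFs. In both cell types the lines therefore differed more at 0 and 24 h than at 48 and 72 h, with Ubf fl/fl cells above the control early in MEFs and below it early in iMEFs. At 96 h they differed again, by a median of -0.39 in iMEFs and by 0.88 for Oas2 and 0.82 for Zbp1 in MEFs. Oas2 had levels of 8.0, 7.80, 8.94 and 9.29 in Ubf fl/fl MEFs, against 7.12, 7.20, 9.05 and 9.10 in Ubf wt/wt MEFs, a contrast of -0.70 ± 0.17 with a limma adjusted p of 0.54. By adjusted p 0 of 65 passed. As lower, 15 passed with array medians made equal and 3 with trend and robust settings, beside 80 and 40 of all 13904 mRNAs. Histones had a MEF median of -0.19. AP-1 and ERK feedback genes had 0.30 and 0.24, with 38 of 39 and 19 of 21 positive, and 14 and 9 of them were higher at an unadjusted p under 0.05. The median own changes of these 2 lists were 0.12 and 0.14 in Ubf fl/fl MEFs, against -0.20 and -0.19 in Ubf wt/wt MEFs. Their median differences between the MEF lines were -0.42 and -0.44 at 0 h, and -0.01 and 0.05 at 72 h. Ier3 had a MEF contrast of 0.70 ± 0.14 and Csrnp1 0.52 ± 0.16, with limma adjusted p of 0.54 and 0.58. Rrp9 had 1.05 ± 0.16, also at 0.54. The MEF contrasts of Rrp9 and Csrnp1 lay mostly in the control. Their own changes were 0.08 and 0.08 in Ubf fl/fl MEFs, against -0.98 and -0.44 in Ubf wt/wt MEFs.

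**Figure D5:**
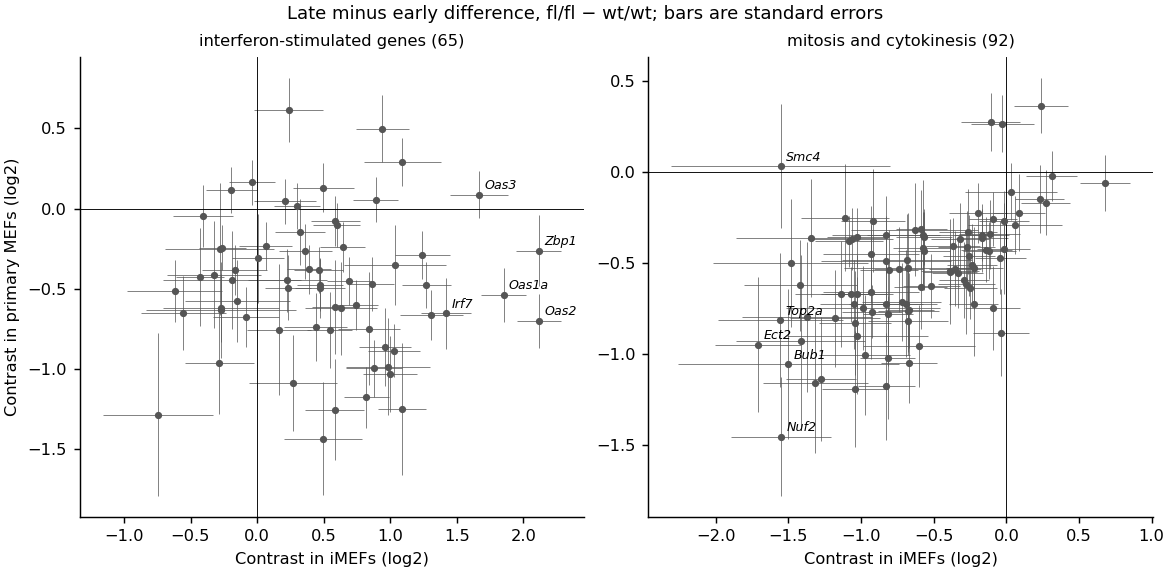
Contrast in primary MEFs (vertical axis, log2) against contrast in iMEFs (horizontal axis, log2) for 65 interferon-stimulated and 92 mitotic genes, with standard errors as bars and the 5 genes with the largest iMEF contrast in each list named. Of the interferon-stimulated genes 55 lie below 0 in MEFs while 48 lie above 0 in iMEFs, and most mitotic genes lie below 0 in both.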

How the data were processed

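RNA of Ubf fl/fl and Ubf wt/wt iMEFs and primary MEFs was hybridized to Affymetrix Mouse Gene ST arrays, 1 per line and time. The authors deposited log2 levels for each probe set on each array, from the RMA-sketch method of Affymetrix Power Tools (1.14.4). The study names the 2.0 ST array, whereas the probe annotation given is that of the 1.0 ST array. Of 35556 probe sets, 21789 had 1 gene symbol, 1621 several and 12146 were not listed, and only those with 1 symbol were used. A gene with several probe sets was represented by the one brightest on average, giving 19938 genes. Genes above the 40th percentile of an array's values in 2 or more of the 8 iMEF arrays were kept, which left 14629 genes, of which 13904 are protein-coding in RefSeq.

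Contrasts and standard errors came from limma 3.58.1 in R 4.3.3, with 2 residual degrees of freedom and an empirical Bayes prior of 4.57 in iMEFs and 6.33 in MEFs. Primary MEFs were tested two-sided with the Benjamini-Hochberg adjustment over all genes kept, at a threshold of 0.05. The limma script was tested on simulated data. Python 3.11.15 and matplotlib 3.10.9 served for the figures.

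The contrast, the called mRNAs and the 57 lists (50 pathways, 7 marker lists) were chosen with earlier results of these data known. Genes were named by rule: the 15 largest contrasts each way among called mRNAs, predicted genes left out, up to 6 called members of each list described or the largest up to 3, and genes of the RPI machinery. Genes outside the rule are the pairs at the threshold, those said to be picked later, and Hif1a and Adm. Not every gene that the rule selects is named. Alternatives changed the scaling, the filter, the probe set, the early and late times, the control, the size threshold and the limma settings. Leaving out single arrays, the Ubf fl/fl 24 h and Ubf wt/wt 48 h arrays together, and quantile normalization without 24 h were chosen after seeing the data.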

Additional observations from a re-analysis of the deposited data

Results flagged for a closer look

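Oas2, Psmb8 and Parp10 had contrasts of opposite sign in iMEFs and primary MEFs, of at least 0.5 in size on the log2 scale at both 48 and 72 h relative to the mean of 0 and 24 h. The difference between the cell types was not tested. Oas2 had a contrast of 2.11 in iMEFs (2.14 at 48 h and 2.09 at 72 h), and -0.70 in MEFs (-0.84 and -0.55). Psmb8 had 1.63 in iMEFs (1.60 and 1.66), and -0.54 in MEFs (-0.52 and -0.55). Parp10 had 1.41 in iMEFs (1.43 and 1.38), and -0.65 in MEFs (-0.60 and -0.71).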

How the results depend on the processing

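The counts of called mRNAs depended on the processing. Beside 50 higher and 651 lower, equal array medians gave 154 and 248, quantile normalization 92 and 373, the Ubf fl/fl line alone 127 and 106, a size of 0.6 gave 405 and 2062, and 24 h as the only early time 91 and 1482. With 0 h alone as the early time 133 were lower, with quantile normalization and 0 h alone 85, and with 96 h counted as late 355. With 72 h alone as the late time 81 were higher. Without the Ubf fl/fl 24 h and Ubf wt/wt 48 h arrays 77 were higher and 27 lower. Leaving out each of the 8 iMEF arrays in turn gave 58 to 88 higher and 127 to 1412 lower mRNAs, the lowest without Ubf fl/fl 24 h, and 256 without Ubf wt/wt 48 h and 359 without Ubf fl/fl 72 h. Without Ubf fl/fl 0 h, Ubf fl/fl 48 h and Ubf wt/wt 72 h there were 1412, 1122 and 1180 lower. The cause was not tested. In primary MEFs 0 genes passed, but 129 with equal array medians, 25 with 48 h and 260 with 72 h as the late time, 88 with trend and robust settings, and 2344 in the Ubf fl/fl line alone. Of 143 called genes named here, Top2a reversed to 0.11 with the mean of its probe sets, and Sp140 and Atm to 0.34 and 0.11 in the Ubf fl/fl line alone. None of the 18 lists with a median of at least 0.3 in size reversed under the 13 alternatives. Over the 50 pathway lists, however, 200 medians moved beyond the list's own scatter between times and 450 did not. For the named genes 635 values moved by more than 1 standard error, 2190 did not and 3 reversed. The alternatives reused the arrays from which the sizes came. No paired analysis was possible because no condition has replicates to block on. The only pairing is that of the lines at each time, which the contrast itself uses. It does not hold where a time lacks the array of 1 line. The number of arrays, and for dim probe sets signal near background, limit what can be seen.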

Other observations

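Pathway lists not described above had medians between -0.44 and 0.22 in iMEFs. The 2 values in brackets leave out both 24 h arrays and, second, the Ubf fl/fl 24 h and Ubf wt/wt 48 h arrays. Of 20 cytosolic tRNA synthetase genes 1 was called lower (5.0%) with a median of -0.44 (-0.22 and -0.09), and of 19 genes of RNA polymerase III and its factors 1 was called lower (5.26%) with a median of -0.39 (-0.13 and -0.21), shares near the 4.68% of all mRNAs. Of 56 genes of ciliary transport 5 were called lower, with a median of -0.33 (-0.24 and -0.12), and Wdr19, of the intraflagellar transport complex, had -1.50 ± 0.26 (-1.17 and -0.98). Of 36 autophagy genes 3 were called lower with a median of -0.29 (-0.18 and -0.14), and of 59 lysosomal genes 6 with a median of -0.23 (-0.20 and -0.18), among them Lipa, the lysosomal acid lipase, with -1.11 ± 0.24 (-1.03 and -0.76). Of 27 insulin signalling genes 4 were called lower, with a median of -0.19 (-0.06 and -0.09), and Grb14 alone was called in both other settings. Insr, the insulin receptor, had -1.20 ± 0.21 (-0.96 and -0.49), Grb14 -1.17 ± 0.18 (-1.12 and -1.05) and Grb10 -1.07 ± 0.20 (-0.90 and -0.80).

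Of 39 integrins and adhesion receptors 4 were called lower, with a median of -0.14 (-0.09 and -0.17) and 0 called in the other settings. Itgb1, the common integrin beta chain, had levels of 8.98, 10.29, 8.75 and 9.07 in Ubf fl/fl iMEFs at 0, 24, 48 and 72 h, against 8.95, 9.01, 9.98 and 9.46 in Ubf wt/wt iMEFs, with a contrast of -1.47 ± 0.45 (-0.84 and -0.55). Of 36 genes of matrix proteases and their inhibitors 3 were called lower, the sheddases Adam17 with -1.26 ± 0.33 (-0.79 and -0.50), Adam10 with -1.10 ± 0.37 (-0.51 and -0.33) and Adam9 with -1.08 ± 0.30 (-0.80 and -0.36), and 0 were called in the other settings. Adm, which encodes the vasodilator adrenomedullin, had a contrast of 1.07 ± 0.18. Lif, a cytokine of the interleukin 6 family, had 0.80 ± 0.18 in iMEFs and 0.64 ± 0.17 in MEFs, with a limma adjusted p of 0.54 in MEFs. Chemokine and cytokine genes had medians of 0.18 in iMEFs (0.25 and 0.27) and 0.35 in MEFs. In MEFs 10 of 27 were higher at an unadjusted limma p under 0.05, beside 592 of all 13904 mRNAs (4.26%). The 11 kept macrophage markers had a median contrast of 0.42 in MEFs, with 10 positive. Their median difference between the MEF lines was 0.26, 0.22, 0.27 and 1.18 at 0, 24, 48 and 72 h. The part of RNA from macrophages in the MEF values was not tested.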
